A study of Mus musculus with 6 samples.

Results

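The genes described here carry fatty acids into the heart muscle cell, store them as triglyceride and break them down in mitochondria and peroxisomes. They were taken by name from a list of 51 genes, each read from the probe set with the highest mean over all arrays among those with a single gene symbol. Of the 51 genes 49 were measured, out of 18193 genes in all. Acsl1 and Cpt1b had no probe set with a single symbol in the table used and were not analysed here. The 49 genes fell into 5 role groups: uptake and activation (8), triglyceride handling (8), mitochondrial oxidation (20), peroxisomal oxidation (9) and a group of PPAR alpha, thioesterases and Ucp3 (4).

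The heart draws most of its energy from long-chain fatty acids. Lipoprotein lipase frees them from triglyceride at the capillary wall, CD36 and fatty acid-binding proteins carry them inward, and the carnitine shuttle brings them into the mitochondrion. There a cycle of dehydrogenation, hydration, a further dehydrogenation and thiolysis shortens the chain and passes electrons on through the electron transfer flavoprotein. The nuclear receptor PPAR alpha senses fatty acids and switches on many of these genes, more strongly in fasting.

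Messenger RNA of the apex of the mouse heart ventricles was measured on Affymetrix whole-genome arrays in a line carrying PR-M, a human progesterone receptor form of the mitochondrion. By the labels 3 samples were PR-M expressing and 3 were PR-M non-expressing. Both groups received 2.5 mg progesterone in oil under the skin for 19 to 21 days, so the hormone itself was not compared. The labels give no strain, age, sex, promoter or way of establishing PR-M expression, and leave unsaid whether each sample is an animal of its own. All p-values therefore measure the spread between these samples, which may be technical. In such bulk tissue, fewer cells of a type and less RNA per cell cannot be told apart.

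The arrays had medians of 5.77 to 5.78 on the log2 scale and correlated with each other at 0.992 to 0.997 over 45037 probe sets. All expressing samples have a title prefix in common, while non-expressing replicate 1 has another prefix than replicates 2 and 3, so the prefix and the group cannot be told apart. The 18S ribosomal RNA control probe sets lay at 8.08 to 8.50 in the expressing and 9.57 to 10.31 in the non-expressing arrays. For beta-actin, the 3′ probe set exceeded the 5′ one by 1.20 to 1.28 and by 1.30 to 1.43. Neither measure overlapped, and for both a two-sided exact permutation test gave p = 0.1, its lower limit with groups of 3. The same value of Gapdh was 0.10 to 0.22 and 0.16 to 0.30, which overlapped (exact permutation p = 0.3, two-sided). Heart muscle markers were bright in both groups: their 10 genes summed to 167088 to 171974 on the linear scale in the expressing and 165800 to 171538 in the non-expressing arrays. Several of them, such as Mb at 14.75, are close to the highest values on these arrays. By sign 6 were higher and 4 lower, from -0.48 (Myh7, without overlap) to 0.35 (Ryr2), and 0 passed. The 5 ventricular markers summed to 49648 to 51635 and 51241 to 52578, with overlap, 3 of them higher and 2 lower, and 0 passed. Of these Myl2, at 14.7 in each group, and Myl3 are close to the highest values on these arrays. Myl3 was lower without overlap, by a difference of -0.04. The 8 atrial markers summed to 3098 to 9795 and 1138 to 2550, without overlap, and 3 of them passed the test. The 7 fibroblast markers summed to 23677 to 26080 and 20115 to 22206, without overlap, and 0 passed. The 6 white fat markers that are no members summed to 515 to 1683 and 473 to 620, with Lep, Cidec and Adig below the median of the arrays. The part of these differences in the results below was not tested.

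None of the 49 genes differed between the groups past the threshold. With limma, a linear model with variances moderated across all probe sets, 0 of 49 had a Benjamini-Hochberg adjusted p under 0.05 over all genes, where 12 of 18193 genes (0.0660%) passed, 0.0330% on the higher and 0.0330% on the lower side. The lowest adjusted p of a member was 0.352. At an unadjusted p under 0.05 there were 4 of 49, which were Acaa2, Acadvl and Etfa on the higher and Gpihbp1 on the lower side, against 11.4% of all genes (4.85% higher, 6.56% lower). With the p-values adjusted over all 45037 probe sets, 0 of the 102 probe sets of these genes passed, where 0.0133% of all did. Over all genes the count fell to 0 when non-expressing replicate 2 was dropped and to 3 when expressing replicate 3 was. It came to 7 for expressing replicate 2 as for non-expressing replicate 3, and no member passed in any of these fits.

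The differences were small. By sign alone, 33 members were higher and 16 lower in the expressing group, 25 of the 49 within 1 SE of 0, with a median log2 difference of 0.06, while 44.0% of all genes were higher and their median was -0.02. The median of the members was -0.00495 without expressing replicate 1 and 0.10 without expressing replicate 2. The 95% interval of the difference lay within 1.5-fold either way for 44 of the 49 genes. The 5 genes with wider intervals were Angptl4, Ucp3, Acot1, Ehhadh and Gpihbp1, and only that of Angptl4 reached beyond 2-fold. In 8 members, 6 higher and 2 lower, every array of one group lay beyond every array of the other. That is a share of 16.3%, against 19.0% of all genes (8.16% higher, 10.8% lower). Dropping expressing replicate 2 gave 14 such members, and dropping non-expressing replicate 1 gave 23, beside 28.3% and 35.3% of all genes.

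**Figure D1:**
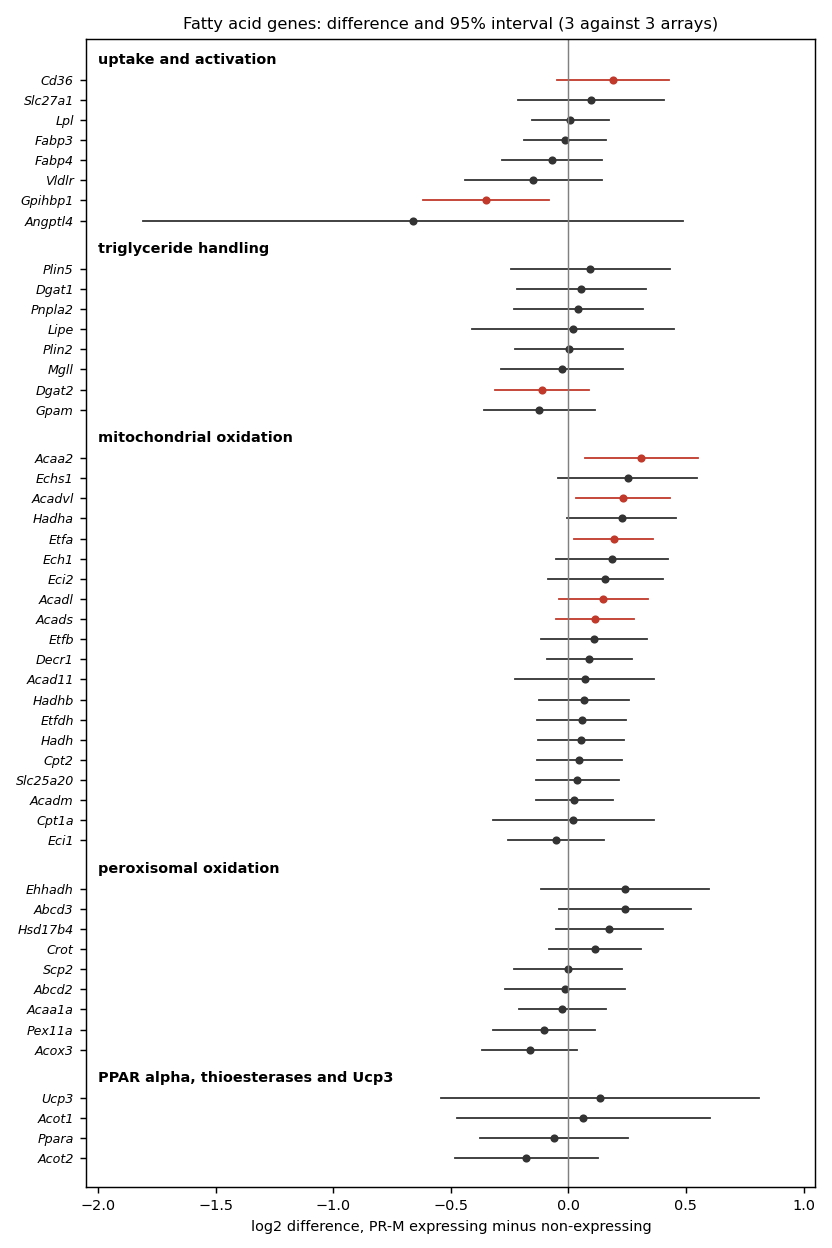
Log2 difference (PR-M expressing minus non-expressing, x axis) of the 49 measured genes by role group, with points for the estimate and lines for the 95% interval of limma over 3 against 3 arrays; red marks the 8 genes whose arrays did not overlap. In the mitochondrial group 19 of 20 points lie to the right of 0, and Angptl4 and Ucp3 have the widest intervals.

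Genes of fatty acid uptake went both ways. Of the 8 measured genes 3 were higher and 5 lower, with a median difference of -0.04. Cd36, the main fatty acid translocase of the muscle cell and the capillary wall, was at 12.68, 12.30 and 12.40 in the expressing and 12.28, 12.28 and 12.25 in the non-expressing arrays. The expressing arrays were all above the others, but replicate 2 by little. The difference of 0.19 (SE 0.10, 95% interval -0.05 to 0.43) did not pass (limma adjusted p 0.521). Without expressing replicate 1 it was 0.08. The second Cd36 probe set differed by 0.18 and the dimmest by -0.04.

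Gpihbp1, which encodes the protein that holds lipoprotein lipase on the capillary endothelium, had the lowest difference of the non-overlapping genes. It lay at 10.49, 10.21 and 10.54 in the expressing and at 10.60, 10.91 and 10.77 in the non-expressing arrays. All expressing arrays were below the others, the highest by 0.06. The difference was -0.35 (SE 0.12, 95% interval -0.62 to -0.08), a 1.27-fold lower level that did not pass (limma adjusted p 0.352). The 11 endothelial markers summed to 7493 to 7947 in the expressing and 7327 to 7999 in the non-expressing arrays, and 6 of them were higher and 5 lower. Their differences ran from -0.29 (Flt1) to 0.29 (Emcn), and 0 of 11 passed.

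Lpl, the lipoprotein lipase that Gpihbp1 anchors, varied little on its brightest probe set. It lay at 14.34, 14.28 and 14.35 in the expressing and 14.33, 14.32 and 14.29 in the non-expressing arrays, a difference of 0.01 (95% interval -0.16 to 0.17). Its values are close to the highest on these arrays (14.8). The second Lpl probe set lay at 11.57 to 11.89 and differed by 0.14 with overlap. Fabp3, the fatty acid-binding protein of heart muscle, differed by -0.01 and is as close to the top. Fabp4, the binding protein of fat cells and capillaries, differed by -0.07.

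Angptl4 encodes a secreted inhibitor of lipoprotein lipase and is a target of PPAR alpha. It had the largest difference of all members, -0.66, and the largest spread. It lay at 8.09, 6.57 and 6.96 in the expressing and at 6.82, 8.74 and 8.06 in the non-expressing arrays. The ranges of the groups overlapped over most of their width. The 95% interval ran from -1.81 to 0.49 (limma adjusted p 0.643). With 1 array left out the difference lay between -1.19 and -0.23. The fatty acid transporter gene Slc27a1 differed by 0.10 and the lipoprotein receptor gene Vldlr by -0.15, and both overlapped. The second Slc27a1 probe set was higher in all expressing arrays with a difference of 0.37, and did not pass over all probe sets (limma adjusted p 0.277).

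**Figure D2:**
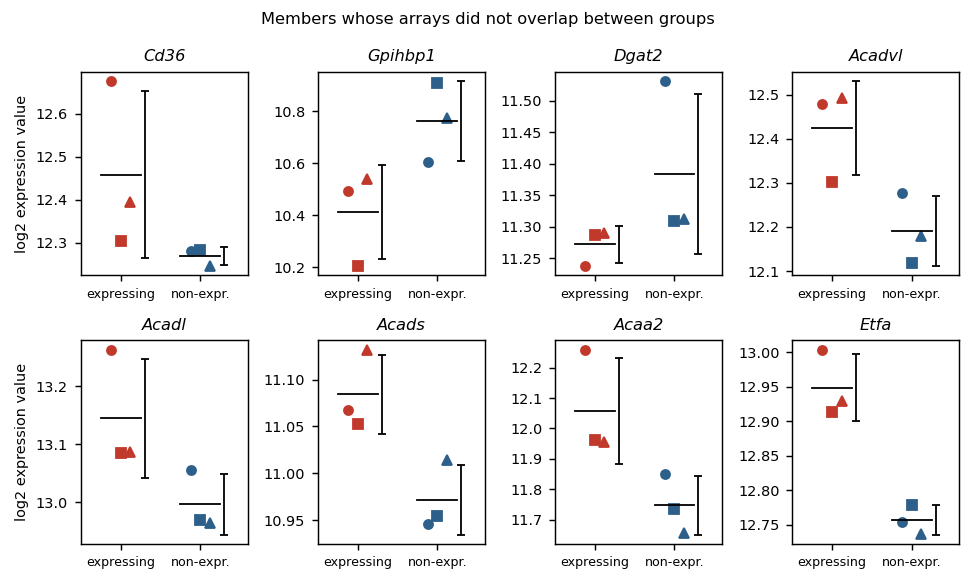
Log2 expression values (y axis, a separate range for each gene) of the 8 genes whose arrays did not overlap; red is PR-M expressing and blue non-expressing, circles, squares and triangles are replicates 1, 2 and 3, horizontal lines are means and bars are SD (n = 3). The gap between the groups is 0.02 for Cd36 and 0.06 for Gpihbp1, against differences of means of 0.19 and -0.35.

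Triglyceride genes did not part the groups. Of the 8 genes 5 were higher and 3 lower, with a median of 0.01. Pnpla2, the adipose triglyceride lipase that starts the breakdown of stored fat, was at 10.64, 10.36 and 10.51 in the expressing and at 10.70, 10.34 and 10.34 in the non-expressing arrays. Replicate 1 was the highest in each group, and the difference was 0.04 (95% interval -0.23 to 0.32). The lipases of the next steps, Lipe and Mgll, differed by 0.02 and -0.03. The lipid droplet coat genes Plin2 and Plin5 differed by 0.00 and 0.09.

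Dgat2, which encodes an enzyme of the last step of triglyceride synthesis, was the only gene of this group without overlap. It lay at 11.24, 11.29 and 11.29 in the expressing and at 11.53, 11.31 and 11.31 in the non-expressing arrays. Non-expressing replicate 1 stood apart, and the other 2 were 0.02 above the expressing arrays. The difference of -0.11 (SE 0.09) did not pass (limma adjusted p 0.649), and the dimmer Dgat2 probe set differed by 0.06. Dgat1, which catalyses the same step, differed by 0.06, and Gpam, the acyltransferase gene of the first step, by -0.12.

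The mitochondrial group leaned to the higher side. By sign, 19 of its 20 genes were higher in the expressing group and 1, the enoyl-CoA isomerase gene Eci1, was lower (-0.05, SE 0.09), with a median of 0.10 and a range from -0.05 to 0.31. None passed. Of the 20 genes 5 did not overlap, all of them higher, where 8.16% of all genes were higher without overlap. Most of these genes are bright on the array: 19 of the 20 are among the brightest 10% of genes, in which 54.6% were higher with a median of 0.01. Brightness depends on the probes as well as on the mRNA, so it does not rank genes by how much mRNA they have.

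The size of this lean moved with single arrays. The median deviation of the 20 genes from their mean over all arrays was 0.14, -0.01 and 0.05 in the expressing and 0.02, -0.08 and -0.09 in the non-expressing arrays. Expressing replicate 2 was thus below non-expressing replicate 1, and the groups overlapped. Without expressing replicate 1 the median difference was 0.06 and 15 of 20 genes were higher. Without non-expressing replicate 1 it was 0.15 with 18 of 20 higher, and without expressing replicate 2 it was 0.13 with 20 of 20 higher. Leaving out any other array gave 0.09 to 0.11, with 18 or 19 of 20 higher. Non-expressing replicate 1 was the highest of its group in 15 of the 20 genes, against 37.7% of all genes and 42.5% of the brightest 10%. Expressing replicate 1 was the highest of its own in 16, against 34.7% and 46.9%. The choice of probe set bears on the count too: averaging the probe sets of a gene gave 15 of 20 higher, and taking the most variable probe set gave 13 of 20. Of the 9 further probe sets of these genes above the array median 6 were higher, and of the 5 below it 0 were.

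**Figure D3:**
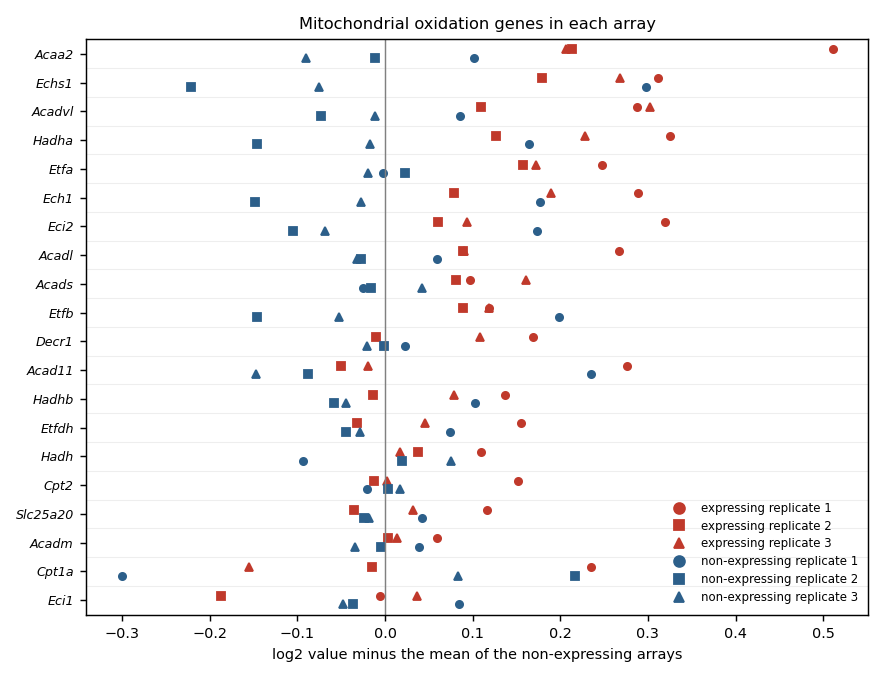
Log2 value of each mitochondrial oxidation gene minus the mean of the 3 non-expressing arrays (x axis), a row for each of the 20 genes in the order of their difference; red is PR-M expressing, blue non-expressing, and circles, squares and triangles are replicates 1, 2 and 3. The red circles (expressing replicate 1) lie farthest right in many rows, and the blue circles (non-expressing replicate 1) lie among the red points for Echs1, Hadha, Ech1 and Eci2, for example.

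At the entry to the mitochondrion the measured genes of the carnitine shuttle had differences close to 0. Cpt1b, the other carnitine palmitoyltransferase 1 gene of the list, was not analysed, so the shuttle was read only in part. Cpt1a, the carnitine palmitoyltransferase of the outer membrane in its liver form, differed by 0.02, Cpt2, its partner of the inner membrane, by 0.05, and Slc25a20, the carnitine-acylcarnitine carrier between them, by 0.04. The adjusted p lay between 0.857 and 0.972 in limma.

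The acyl-CoA dehydrogenases, which open each round of the cycle, differ in the chain length they take. Acadvl, for very long chains, was at 12.48, 12.30 and 12.49 in the expressing and at 12.28, 12.12 and 12.18 in the non-expressing arrays. Every expressing array was above the others, and the difference was 0.23 (SE 0.09, 95% interval 0.03 to 0.43), or 1.18-fold (limma adjusted p 0.382). Acadl, for long chains, was at 13.26, 13.09 and 13.09 against 13.06, 12.97 and 12.96. Its difference was 0.15 (SE 0.08, adjusted p 0.527 in limma), with the lowest expressing array 0.03 above the highest non-expressing one. Acads, for short chains, was at 11.07, 11.05 and 11.13 against 10.95, 10.96 and 11.01. The gap between its groups was 0.039, and its difference was 0.11 (SE 0.07, adjusted p 0.584 in limma). Acadm, for medium chains, was at 13.77, 13.71 and 13.72 against 13.75, 13.71 and 13.68, with a difference of 0.03 (95% interval -0.14 to 0.19). The medium-chain gene was thus alike in all 6 arrays, while the other 3 were separated by small gaps. Whether the 4 dehydrogenases differ from each other in response was not tested. Acad11, which takes very long chains, differed by 0.07.

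The later steps of the cycle held the largest difference of the group. Acaa2, the thiolase that cuts off acetyl-CoA, was at 12.26, 11.96 and 11.96 in the expressing and at 11.85, 11.74 and 11.66 in the non-expressing arrays. The 3 expressing arrays were above the others, replicate 1 by the most. The difference was 0.31 (SE 0.11, 95% interval 0.07 to 0.55), or 1.24-fold, and did not pass (limma adjusted p 0.352). Both further Acaa2 probe sets were higher too, by 0.44 and 0.38, but overlapped. With 1 array left out the difference lay between 0.20 and 0.36.

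Hadha and Hadhb encode the subunits of the trifunctional protein, which carries out the last 3 steps for long chains. Hadha differed by 0.23 (SE 0.10, adjusted p 0.445 in limma) and Hadhb by 0.07 (SE 0.08, adjusted p 0.796 in limma), and both overlapped between groups. The second Hadhb probe set differed by 0.09 and the dimmest by -0.25, both with overlap. The RefSeq starts of Hadha and Hadhb lie back to back on chromosome 5. Thus the windows of 300 bases around the 2 starts, chr5:30154931-30155230 for Hadha and chr5:30155003-30155302 for Hadhb in GRCm38.p6, overlap on opposite strands. Echs1, the short-chain enoyl-CoA hydratase gene, was at 11.48, 11.35 and 11.44 in the expressing and at 11.47, 10.95 and 11.09 in the non-expressing arrays. Its difference of 0.25 came with 1 non-expressing array, replicate 1, at the level of the expressing ones. When that array was dropped it was 0.40 (limma adjusted p 0.135), the lowest adjusted p of any member with an array left out. Hadh, the dehydrogenase gene for short chains, differed by 0.06. The auxiliary genes for unsaturated fatty acids, Decr1, Ech1 and Eci2, differed by 0.09, 0.19 and 0.16, and all overlapped.

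The electron transfer flavoprotein takes electrons from the dehydrogenases. Etfa, its alpha subunit gene, was at 13.00, 12.91 and 12.93 in the expressing and at 12.75, 12.78 and 12.74 in the non-expressing arrays. The gap between the groups, 0.135, was larger than the range of values within either group. The difference was 0.19 (SE 0.07, 95% interval 0.03 to 0.36) and did not pass (limma adjusted p 0.385). It kept close to this size with 1 array left out, between 0.16 and 0.21. Etfb, the beta subunit gene, was at 12.93, 12.90 and 12.93 against 13.01, 12.67 and 12.76, a difference of 0.11 with overlap. Etfdh, whose product hands the electrons to ubiquinone, differed by 0.06.

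Peroxisomal genes were spread around 0. Of the 9 genes 4 were higher and 5 lower, the median was -9e-04, and 0 were without overlap. Peroxisomes shorten very long chains before the mitochondrion takes over. The ABC transporter gene Abcd3 differed by 0.24 (95% interval -0.04 to 0.52), its relative Abcd2 by -0.01, and Abcd2 lay below the median of the arrays. The further Abcd2 probe sets, dimmer still, differed by 0.35, without overlap, by -0.18 and by 0.04, and none passed. The bifunctional enzyme genes Ehhadh and Hsd17b4 differed by 0.24 and 0.17. The second Hsd17b4 probe set, with a mean of 9.51 against 9.65 for the first, differed by -0.01. Ehhadh was at 7.60 in expressing replicate 1 and between 6.92 and 7.07 in the other 5 arrays, and without that replicate its difference was 0.04. The oxidase gene Acox3 differed by -0.17, the thiolase gene Acaa1a by -0.03, the carnitine octanoyltransferase gene Crot by 0.11 and the peroxisome division gene Pex11a by -0.10. Scp2, a thiolase and sterol carrier gene, differed by -9e-04 on its brightest probe set. Its other 3 probe sets differed by -0.14, -0.14 and -0.15, the first of them without overlap, and none passed. Without expressing replicate 3 the median of the group was 0.07.

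Ppara, the receptor gene itself, was at 8.73, 8.58 and 9.01 in the expressing and at 9.05, 8.65 and 8.80 in the non-expressing arrays. The groups overlapped throughout, with a difference of -0.06 (95% interval -0.37 to 0.25, limma adjusted p 0.897). Its 2 further probe sets differed by 0.18 and -0.06. Among known targets of PPAR alpha, a list that crosses the role groups and adds other genes, 18 of the 26 measured were higher and 8 lower, with a median of 0.06, and 3 did not overlap (11.5%, against 19.0% of all genes). Those were Cd36, Acadvl and Acadl. None passed, and the median was -0.02 without expressing replicate 1. Pdk4, the kinase gene that closes pyruvate oxidation when fat is burnt, is no member and differed by 0.08 (limma adjusted p 0.965).

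**Figure D4:**
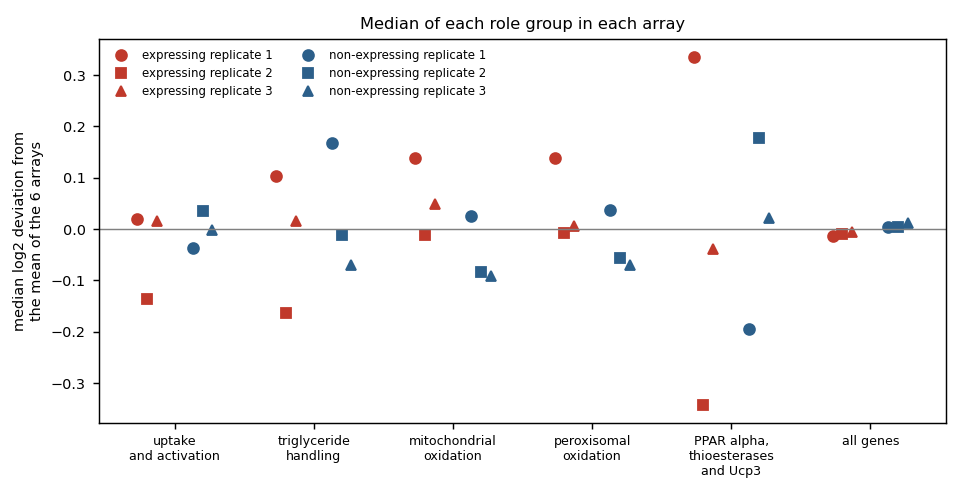
Median over the genes of each role group of the log2 deviation from the mean of the 6 arrays (y axis), a point for each array; red is PR-M expressing, blue non-expressing, and symbols are replicates 1 to 3. In no role group do the 3 red points all lie above or all below the 3 blue points, and the group of PPAR alpha, thioesterases and Ucp3 spreads from -0.34 in expressing replicate 2 to 0.34 in expressing replicate 1.

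A set of members varied more between arrays of a group than between groups. They are named here after their values were seen. Ucp3, a mitochondrial carrier gene induced by fatty acids, was at 8.65, 7.59 and 7.64 in the expressing and at 7.45, 8.26 and 7.77 in the non-expressing arrays. Acot1, a cytosolic acyl-CoA thioesterase gene, was at 7.83, 6.95 and 7.32 against 6.90, 7.52 and 7.49. Lipe was at 8.40, 7.79 and 7.70 against 7.69, 8.14 and 8.00. In these 3 genes, as in Angptl4, expressing replicate 1 and non-expressing replicate 2 were the highest of their groups and non-expressing replicate 1 the lowest of its own.

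Cpt1a followed the same order at a smaller range, with 8.51, 8.26 and 8.12 against 7.98, 8.49 and 8.36. Pdk4 was at 12.94, 11.36 and 12.52 against 11.53, 12.91 and 12.15, with the same order. The pooled SD within groups was 0.89 for Angptl4, 0.76 for Pdk4, 0.51 for Ucp3, 0.40 for Acot1, 0.31 for Lipe and 0.24 for Cpt1a, while its median over all genes was 0.11. Ranked among 18193 genes, these stood at percentiles 99.9, 99.9, 99.4, 98.8, 97.3 and 92.7. Acot2, the mitochondrial relative of Acot1, had the same order at 11.54, 10.99 and 11.30 against 11.42, 11.54 and 11.42. In all, 9 of the 49 members had this order of arrays (expressing replicate 1 above the others of its group, non-expressing replicate 2 above 3 above 1), against 6.75% of all genes. The others were Fabp3, Fabp4 and Mgll. The order was defined on these values, so the share is a description.

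**Figure D5:**
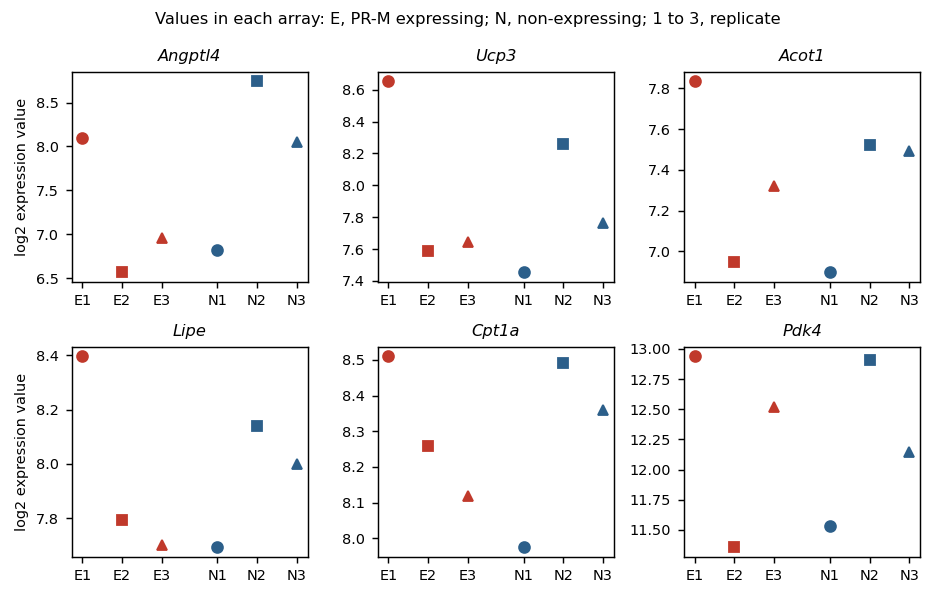
Log2 expression values (y axis, a separate range for each gene) of Angptl4, Ucp3, Acot1, Lipe, Cpt1a and Pdk4 in each array (x axis); red is PR-M expressing (E), blue non-expressing (N), and 1 to 3 are replicates. In each panel E1 is the highest red point, N2 the highest blue point and N1 the lowest blue point.

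The differences between the groups of these genes moved with the arrays. For Ucp3 the difference was 0.13, and with 1 array left out it lay between -0.21 and 0.35. For Acot1 it was 0.06, between -0.17 and 0.27. For Acot2 it was -0.18, between -0.31 and -0.03. The median of the group of PPAR alpha, thioesterases and Ucp3 was 0.0012 over all arrays, -0.19 without expressing replicate 1 and 0.15 without expressing replicate 2. The labels give neither feeding state nor time of day of sampling. Acot1 and Acot2 are close copies on chromosome 12, and probes may be shared between such copies.

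PPAR alpha acts on DNA as a pair with the retinoid X receptor at a direct repeat of a short site with a base between the copies. The promoters of the members, 250 bases before to 50 bases after the start, were taken from RefSeq (GRCm38.p6) and searched on both strands for 2 copies of AGGTCA in the same direction with 1 base between them, allowing up to 2 mismatches. Entries were found for 40 of the 51 genes. Those without an entry were Fabp4, Lpl, Gpihbp1, Angptl4, Dgat1, Dgat2, Cpt1b, Acaa2, Decr1, Hsd17b4 and Abcd2. Of 49 member promoters 6 (12.2%) held such a match, against 3.86% of 32851 promoters. The 250 bases before the start are shown for 4 of the 6 genes, because their arrays did not overlap (Cd36, Etfa), varied strongly within groups (Ucp3) or had a mean difference near 0 (Plin2). Capitals mark the match, which reads on the other strand in Cd36, Etfa and Plin2.
Cd36, chr5:17835897-17836146, minus strand: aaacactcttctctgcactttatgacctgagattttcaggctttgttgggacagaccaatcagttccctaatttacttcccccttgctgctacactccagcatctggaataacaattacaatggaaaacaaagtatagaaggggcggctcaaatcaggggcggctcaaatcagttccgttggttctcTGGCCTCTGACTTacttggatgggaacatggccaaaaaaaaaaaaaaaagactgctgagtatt
Etfa, chr9:55512244-55512493, minus strand: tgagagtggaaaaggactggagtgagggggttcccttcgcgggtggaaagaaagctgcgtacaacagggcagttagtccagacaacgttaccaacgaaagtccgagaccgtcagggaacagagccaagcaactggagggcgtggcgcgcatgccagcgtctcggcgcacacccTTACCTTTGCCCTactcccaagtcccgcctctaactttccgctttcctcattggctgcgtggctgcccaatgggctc
Ucp3, chr7:100472741-100472990, plus strand: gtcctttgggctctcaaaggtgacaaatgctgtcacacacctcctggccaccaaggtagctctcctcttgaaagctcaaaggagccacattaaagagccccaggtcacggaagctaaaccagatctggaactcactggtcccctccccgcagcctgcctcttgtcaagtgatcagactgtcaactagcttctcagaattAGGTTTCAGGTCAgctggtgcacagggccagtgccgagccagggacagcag
Plin2, chr4:86670060-86670309, minus strand: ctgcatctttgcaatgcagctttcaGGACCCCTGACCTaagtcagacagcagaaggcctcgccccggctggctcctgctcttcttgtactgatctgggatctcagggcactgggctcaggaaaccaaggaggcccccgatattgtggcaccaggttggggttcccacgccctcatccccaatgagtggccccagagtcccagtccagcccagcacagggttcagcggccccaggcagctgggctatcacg

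The match began 63 bases before the start in Cd36, 77 in Etfa, 51 in Ucp3 and 225 in Plin2, and each had 2 mismatches. The other matches were AGGTCACGGGTCC, 83 bases before the start of Echs1, and AGGTGAAAGGTCG, from base 7 after the start of Slc25a20. The 6 genes had differences of 0.19 (Cd36), 0.19 (Etfa), 0.13 (Ucp3), 0.00 (Plin2), 0.25 (Echs1) and 0.04 (Slc25a20). Without mismatches, the GC box GGGCGG was in 73.5% of member promoters against 35.7% of all, and TATAAA in 0 of 49 against 13.6%. The estrogen-related receptor site TCAAGGTCA and the steroid receptor element, GNACA and TGTNC with 3 bases between, were in 0 of 49, against 0.423% and 0.475% of all. A match describes these letters and no binding.

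Other genes of fatty acid metabolism, 116 measured of 128 listed, divided evenly. They held 57 higher and 59 lower genes with a median of -6e-04, and 0 passed the limma threshold, with 10 higher and 4 lower at an unadjusted p under 0.05 (12.1%, against 11.4% of all genes) and 26 without overlap (22.4%, against 19.0%). The 2 genes with the lowest p of each list are given as values. In uptake and carriers they were Lrp1, a lipoprotein receptor gene (0.25), and Acbd3 (0.15). In lipid droplets they were Cideb (0.42) and Cidea (-0.25), both genes of droplet fusion. In mitochondrial oxidation they were Acsm5, a medium-chain acyl-CoA synthetase gene (0.90), and Acad9 (0.31). Acsm5 was at 5.96, 6.06 and 6.04 in the expressing and at 5.87, 4.55 and 4.93 in the non-expressing arrays. Its mean over all arrays, 5.57, lay below the array median of 5.78, and it did not pass (limma adjusted p 0.339). Without non-expressing replicate 1 it passed with a difference of 1.28 (limma adjusted p 0.0282), the only 1 of 17 alternatives in which it did.

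In peroxisomes the 2 genes were Phyh, which starts the breakdown of branched chains (0.37), and Hacl1, a lyase gene of the same path (-0.24). In synthesis and desaturation they were Scd1 (1.23) and Fads1 (0.24), both desaturase genes. In transcription control they were Nr1h3, the liver X receptor alpha gene (-0.33), and Nrip1, a corepressor gene (0.29). The adjusted p of these 12 genes in limma lay between 0.286 and 0.487. The coactivator gene Ppargc1a differed by 0.09 and Acacb, whose product makes the malonyl-CoA that blocks carnitine palmitoyltransferase, by 0.12, and both overlapped.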

How the data were processed

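The table deposited by the authors holds log2 expression, a value for each probe set on each array, a scale judged from its range. RMA (background correction, quantile normalization and probe summary) and Partek 6.6 are named by the submitters' processing notes, in what role is not stated, and their settings were not given. After sorting, values at the same rank lay within 0.155 of each other on all arrays, so a change shared by all genes would not show. Of 45101 probe sets 64 controls were left out of the tests.

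From these values limma 3.58.1 in R 4.3.3 was fitted over 45037 probe sets (lmFit, eBayes, two-sided, prior with 4.48 degrees of freedom). Each gene was read from its probe set with the highest mean, and p-values were adjusted by Benjamini-Hochberg over 18193 genes, threshold 0.05. Differences are expressing minus non-expressing and SE is moderated. The script was tested on simulated data. Members, role groups and lists were chosen with earlier results of these data known, so no list test was made. Values in all arrays were given for members without overlap and, where measured, for Ppara, Cd36, Lpl, Cpt1b, Acadm and Pnpla2. Of each other list the 2 genes with the lowest p were named, as were Pdk4, Ppargc1a and Acacb; others were named after their values were seen. Precision was limited by 3 arrays in each group.

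Alternatives were median scaling, cyclic loess, a filter on dim probe sets, dropping probe sets whose names end in _x_at or _s_at, the mean or the most variable probe set of a gene, an intensity trend with robust prior, array weights, a random block for the title prefix, each array left out in turn and a threshold of 0.1. A prior over genes only was added after seeing the data.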

Additional observations from a re-analysis of the deposited data

How the results depend on the processing

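The count of members past the threshold was 0 under every alternative run, and the lowest adjusted p of a member ranged from 0.135 without non-expressing replicate 1 to 0.589 without non-expressing replicate 2. Over all genes, 12 passed in the fit reported. That number was 3 without probe sets ending in _x_at or _s_at, 1 with the mean of all probe sets, 38 with the most variable probe set, 23 with an intensity trend and robust prior, 26 with array weights, 4 with a random block for the title prefix, 27 at a threshold of 0.1, 4 with the prior over genes only (chosen after seeing the data) and 0 to 18 with 1 array left out. The count of members without overlap was 5 with the mean of all probe sets, beside 18.5% of all genes, and 7 to 23 with 1 array left out, beside 27.3% to 35.3% of all genes. That of other fatty acid genes past the threshold was 0 to 1 with 1 array left out. With the most variable probe set the median was 0.10 for uptake and 0.13 for peroxisomal oxidation, and with 1 array left out the latter lay between -0.00413 and 0.0747. With the most variable probe set the sign also turned for Vldlr (0.0252), Dgat2 (0.0647), Acadl (-0.0847), Acox3 (0.13), Crot (-0.0454), Pex11a (0.0559), Acacb (-0.10) and Fads1 (-0.0696), and with averaged probe sets for Acbd3 (-0.0147). Both alternatives by construction read other probe sets, and for the other changes the cause was not tested. The most variable probe sets of Acadl and Acox3 had means of 5.02 and 4.32, below the array median of 5.78. Those of Vldlr, Dgat2, Crot and Pex11a lay above it. Of the 49 members 25 were within 1 SE of 0, and a change of their sign is not counted as a reversal here. With the most variable probe set such changes led, for example, to 0.35 for Abcd2, 0.27 for Mgll, -0.25 for Hadhb and 0.18 for Fabp4. Of the 49 members 20 kept their sign under every alternative. On the probe sets of the reported fit 1 member, Abcd2, lay below the median of the arrays. No paired analysis was possible because the replicate numbers used here follow the order of listing and pair nothing, and the numbers that end the titles coincide for only 1 pair of samples.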

Other observations

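The desaturase gene Scd1 had the largest difference among the fatty acid genes read here, members or not. It was at 8.62, 10.23 and 9.04 in the expressing and at 8.18, 7.99 and 8.03 in the non-expressing arrays. The groups did not overlap, yet the difference of 1.23 (SE 0.34) missed the threshold (limma adjusted p 0.298). With 1 array left out its difference lay between 0.76 and 1.57. The fat cell gene Adipoq was at 6.10, 7.83 and 6.90 against 5.92, 6.53 and 5.98. Car3, a carbonic anhydrase gene of fat and muscle, was at 8.22, 10.30 and 9.39 against 8.20, 8.54 and 7.96. Both overlapped and did not pass (limma adjusted p 0.459 and 0.408). Of the 9 measured white fat markers, members included, 7 were higher and 2 lower. Their median was 0.05, the lowest was Adig (-0.26), and 0 passed. The atrial light chain gene Myl7 was at 9.22, 10.96 and 9.79 against 6.68, 6.26 and 6.66, and it passed (limma adjusted p 0.0348). In Scd1, Adipoq, Car3 and Myl7 expressing replicate 2 was the highest and replicate 1 the lowest of its group. This order was held by 16.0% of all genes and by 0 of the 49 members. In 35 of the 49 members (71.4%) expressing replicate 1 was instead the highest of its group, against 34.7% of all genes and 46.9% of the brightest 10%. The 4 genes were named after their values were seen, and the order was defined on them, so the shares are a description.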
